A study of Codonopsis pilosula with 12 samples.

Results

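Galactinol, raffinose and trehalose are small sugars of plant stress physiology, and 30 of the 55270 assembled genes of Codonopsis pilosula, a medicinal herb of the bellflower family, were annotated to the enzymes that make them. They were taken by words in the annotation, namely galactinol synthase, raffinose synthase or galactinol--sucrose galactosyltransferase, stachyose synthase, trehalose, inositol-3-phosphate synthase and myo-inositol oxygenase. The words matched 30 genes and the requirement of a land plant SwissProt hit, where there was a hit, removed 0. There were 12 trehalose-phosphate synthase genes, 7 trehalose-phosphate phosphatase genes, 6 raffinose synthase genes, 2 galactinol synthase genes, 2 stachyose synthase genes and 1 inositol-3-phosphate synthase gene. The names come from sequence matches to other species and not from work on this plant.

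The 12 leaf libraries came from potted seedlings that were 4 weeks past emergence on drought day 0. They were of the cultivar Weidang No. 1 (W1) and of Gandang No. 1 (G1), which the study's authors selected. Both cultivars were sampled with soil water kept at 180 g/kg on drought day 0 (CW1 and CG1) and after water had been withheld until drought day 4 (DW1 and DG1), with 3 libraries in each group. No watered plants were sequenced on day 4, so drought and 4 days of growth cannot be told apart. The title of CW1 replicate 1 puts it with the controls while another of its labels calls it a drought sample. Labels and methods also differ on whether a replicate was 1 pot or a mix of 2 pots, and p-values therefore measure only the spread between these libraries.

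Myo-inositol is made from glucose 6-phosphate by inositol-3-phosphate synthase. Galactinol synthase joins inositol to galactose from UDP-galactose, and raffinose and stachyose synthases then pass that galactose to sucrose and to raffinose. In many plants leaves accumulate these sugars under drought, cold or heat, where they act as compatible solutes. Trehalose 6-phosphate is made by trehalose-phosphate synthase and dephosphorylated by trehalose-phosphate phosphatase. It is scarce in most plants and is known as a signal of sucrose status that inhibits the kinase SnRK1.

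Transcript levels are given in TPM, a unit scaled by transcript length and library total, and differences as log2 fold changes fitted to read counts with their standard error. A gene was called where edgeR's quasi-likelihood test gave a Benjamini-Hochberg adjusted p under 0.05 over the 29168 genes tested. Of the 30 genes, 26 passed the filter on low counts. The other 4 were short models of 224 to 496 bp with at most 21 reads in any library, being 3 of the phosphatases and 1 of the stachyose synthases, and their TPM lay between 0 and 5.78. In a bulk leaf sample fewer cells of a type and less RNA per cell cannot be told apart.

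Total estimated counts ran from 12415229 to 22837632 per library. The leaf mesophyll list (30 Rubisco small chain and chlorophyll a-b binding protein genes) summed to 69482 to 136412 TPM in 11 libraries and to 14368 TPM in DG1 replicate 1, and none of its genes was at 0 throughout a group. In DG1 replicate 1, genes whose only hit was a vertebrate protein summed to 24785 TPM, against 1401 to 2443 TPM in the other 11. The phloem list (6 genes) was also lowest there, at 19.9 TPM against 64.0 to 319.3 TPM. The root list (9 genes) spanned 71.1 to 206.1 TPM, highest in CG1 replicate 1, and the guard cell list (5 genes) 0.590 to 15.7 TPM. In the root list, RHD3 DN16307_c1_g4 alone gave 59.3 to 102.9 TPM, and 6 of the genes were at 0 in all DG1 libraries. Its member DN20464_c0_g2 was at 27.4 TPM in CG1 replicate 1 and at most 2.2 TPM in the others. Where leaving out DG1 replicate 1 changed a printed call, or the fold of a called gene by over 1.5 times, the value without it is given.

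Inositol-3-phosphate synthase and the galactinol synthase GOLS1 held a large part of the TPM of the family, and scarcer genes were among those called. Together the 30 genes summed to 1027 ± 107 TPM (SD, n = 3) in CW1 and 2711 ± 469 TPM in DW1, a ratio of 2.64, and to 1103 ± 204 TPM in CG1 and 3280 ± 632 TPM in DG1, a ratio of 2.97. The 2 genes made up 45.1% to 59.9% of this sum in the 6 control libraries and 75.0% to 86.2% in the 6 drought libraries. In G1, 6 of the 26 tested genes rose (23.1%, where 11.5% of all tested genes rose) and 2 fell (7.69%, where 12.3% of all tested genes fell). In W1, 1 rose and 0 fell, where 0.771% of all tested genes rose and 0.799% fell. DESeq2 called 4 rising and 1 falling there (4.49% and 5.85% of all genes it gave an adjusted p), and 8 of the 26 had an unadjusted p under 0.05 (21.2% of all tested genes). With the cultivars averaged, 7 rose (14.0% of all tested genes) and 3 fell (15.3% of all tested genes). The median log2 fold change of the 26 was 0.08 in G1 and 0.26 in W1, beside 0.01 and 0.02 over all tested genes.

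**Figure D1:**
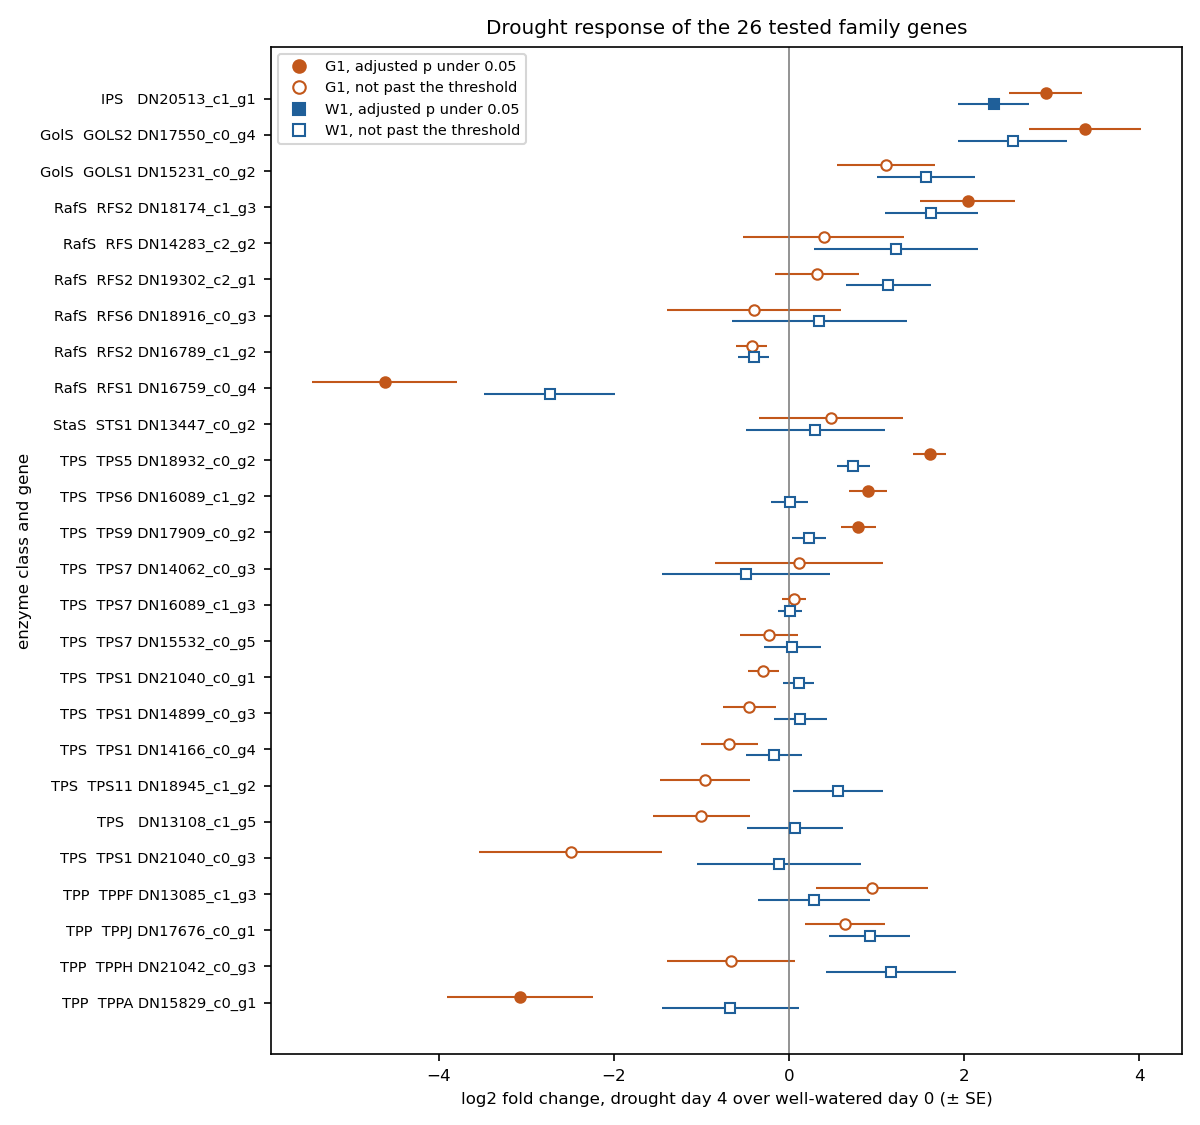
Log2 fold change of drought day 4 over day 0 (horizontal axis, with standard error bars) for the 26 tested genes, in G1 (circles) and W1 (squares), with filled symbols where the adjusted p was under 0.05. IPS is inositol-3-phosphate synthase, GolS galactinol synthase, RafS raffinose synthase, StaS stachyose synthase, TPS trehalose-phosphate synthase and TPP trehalose-phosphate phosphatase. The 8 filled G1 symbols run from -4.62 for RFS1 to 3.37 for GOLS2, and the only filled W1 symbol is inositol-3-phosphate synthase at 2.33.

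Inositol-3-phosphate synthase (DN20513_c1_g1, 3054 bp), which commits glucose 6-phosphate to inositol, had the highest mean level in the family in both drought groups. In W1 it measured 283.7, 257.1 and 352.1 TPM in the controls and 1062, 1388 and 1611 TPM under drought. In G1 it measured 179.3, 359.0 and 274.6 TPM in the controls and 1820, 2118 and 2397 TPM under drought. All drought libraries lay above all control libraries, DG1 replicate 1 included. The fitted rise was 7.62-fold in G1 (log2 2.93 ± 0.42, adjusted p = 0.00187) and 5.04-fold in W1 (log2 2.33 ± 0.41, adjusted p = 0.0343). The W1 call was near the threshold and was lost when any 1 of 7 libraries was left out (CW1 replicates 1 and 2, DW1 replicates 2 and 3, CG1 replicate 3, DG1 replicates 2 and 3), at adjusted p 0.0501 to 0.199. The 3 DG1 values also lay above the 3 DW1 values, but the cultivars under drought did not differ past the threshold (adjusted p = 0.418).

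The galactinol synthases, which supply the galactosyl donor of the pathway, were an abundant gene and a scarce one. GOLS1 (DN15231_c0_g2, 1908 bp) measured 280.5, 245.8 and 336.9 TPM in CW1 and 685.2, 541.5 and 1130 TPM in DW1. In G1 it measured 216.1, 321.7 and 282.4 TPM in the controls and 171.7, 647.8 and 926.4 TPM under drought. DG1 replicate 1 was below every control library, whereas the other 5 drought libraries were above all 6. GOLS1 was called only with the cultivars averaged (log2 1.33 ± 0.40, adjusted p = 0.0275), and that call was lost without any 1 of 7 libraries (adjusted p 0.0522 to 0.0740). In G1 alone its log2 fold change was 1.11 ± 0.56 (adjusted p = 0.174), and without DG1 replicate 1 it was 1.55 (adjusted p = 0.0329).

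GOLS2 (DN17550_c0_g4, 1471 bp) measured 3.5, 2.29 and 4.89 TPM in CW1 and 25.5, 30.1 and 4.55 TPM in DW1. In G1 it measured 5.59, 5.85 and 3.36 TPM in the controls and 84.8, 37.5 and 33.4 TPM under drought. DW1 replicate 3 stayed within the control range, while the 3 DG1 libraries were each over all controls. GOLS2 rose 10.4-fold in G1 (log2 3.37 ± 0.64, adjusted p = 0.0053) and its log2 fold change in W1 was 2.55 ± 0.62 (adjusted p = 0.0661), or 3.01 without DW1 replicate 3 (adjusted p = 0.0409). It gave 0.923% to 2.52% of the galactinol synthase TPM in the control libraries, 0.401% to 5.27% in DW1 and 3.48%, 5.47% and 33.1% in DG1, the last in replicate 1.

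**Figure D2:**
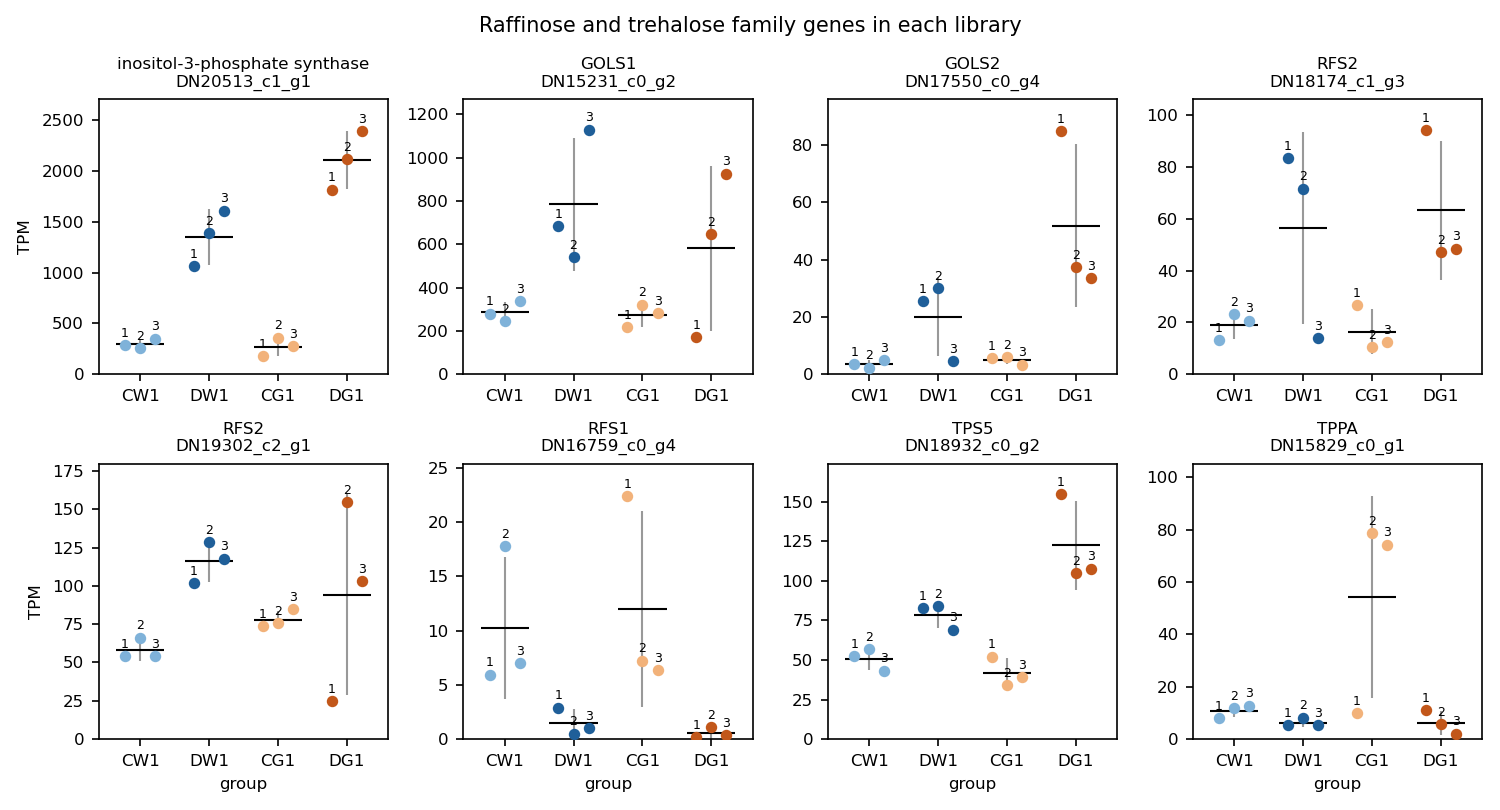
TPM (vertical axes, linear from 0) of 8 family genes in each library, with replicate numbers beside the points, group means as black bars and SD as grey lines (n = 3). Inositol-3-phosphate synthase and TPS5 lay above all controls in every drought library, GOLS1 and RFS2 DN19302_c2_g1 were low in DG1 replicate 1, and TPPA was high in CG1 replicates 2 and 3 only.

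The raffinose synthase genes moved in different directions. In Arabidopsis, the RFS family holds both raffinose synthases and proteins also called seed imbibition proteins, and RFS2 has been described there as an alpha-galactosidase that breaks raffinose down, so these names do not settle which reaction a gene serves. RFS2 was the best hit of 3 genes. The most abundant of them, DN19302_c2_g1 (3092 bp), measured 54.3, 66.2 and 53.9 TPM in CW1 and 101.7, 128.4 and 117.8 TPM in DW1. In G1 it measured 73.5, 75.6 and 84.7 TPM in the controls and 24.9, 154.8 and 103.1 TPM under drought. The W1 groups did not overlap, and in G1 replicate 1 was the lowest of all 12 libraries while the other drought libraries exceeded all controls. It was not called in either cultivar (log2 1.13 ± 0.48 in W1, adjusted p = 0.210, and 0.32 ± 0.48 in G1, adjusted p = 0.672), and averaged over cultivars its log2 fold change was 0.72 (adjusted p = 0.133), or 0.94 without DG1 replicate 1 (adjusted p = 0.00774).

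The second RFS2 hit, DN18174_c1_g3 (3692 bp), was the gene of this class that rose. It measured 13.1, 23.2 and 20.6 TPM in CW1 and 83.3, 71.6 and 14.0 TPM in DW1, and 26.6, 10.4 and 12.4 TPM in CG1 and 94.0, 47.2 and 48.4 TPM in DG1. As with GOLS2, DW1 replicate 3 was inside the control range and DG1 replicate 1 was the highest library. The rise in G1 was 4.11-fold (log2 2.04 ± 0.54, adjusted p = 0.0216), and it was lost without CG1 replicate 2, CG1 replicate 3 or DG1 replicate 1 (adjusted p 0.0681 to 0.0807), at a log2 fold change of 1.66 in the last case. In W1 the log2 fold change was 1.62 ± 0.53 (adjusted p = 0.120). The third RFS2 hit, DN16789_c1_g2 (2944 bp), had group means of 43.1 ± 5.0, 30.9 ± 7.5, 31.8 ± 8.3 and 23.7 ± 3.4 TPM (SD, n = 3) in CW1, DW1, CG1 and DG1. It fell with the cultivars averaged (log2 -0.42 ± 0.13, adjusted p = 0.0316) and that call was lost without any 1 of 6 libraries (adjusted p 0.0592 to 0.0777).

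RFS1 (DN16759_c0_g4, 2738 bp) had the largest fitted fall of the 26 tested genes in both cultivars. Its closest database protein was labelled a cyclic nucleotide-binding domain protein while its SwissProt hit was galactinol--sucrose galactosyltransferase 1, so its identity is uncertain. It measured 5.93, 17.8 and 7.01 TPM in CW1 and 2.90, 0.490 and 1.02 TPM in DW1, and 22.4, 7.23 and 6.36 TPM in CG1 and 0.170, 1.11 and 0.350 TPM in DG1. Every drought library was below every control library in both cultivars. The fall was 24.6-fold in G1 (log2 -4.62 ± 0.83, adjusted p = 0.00428), and the log2 fold change was -5.65 without DG1 replicate 2 (adjusted p = 0.00567). In W1 the log2 fold change was -2.73 ± 0.75 (adjusted p = 0.0822), or -3.67 without DW1 replicate 1 (adjusted p = 0.0317).

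The gene whose hits were to pea raffinose synthase and to RFS5, DN14283_c2_g2 (2597 bp), is the one whose name points most directly to raffinose formation. It was not called, with TPM of 2.26 to 8.03 in CW1, 3.21 to 16.9 in DW1, 3.16 to 16.8 in CG1 and 3.63 to 34.5 in DG1, and log2 fold changes of 0.40 ± 0.92 in G1 (adjusted p = 0.792) and 1.22 ± 0.94 in W1 (adjusted p = 0.490). RFS6 (DN18916_c0_g3) spanned 1.94 to 20.5 TPM and was not called either (adjusted p = 0.807 in G1 and 0.880 in W1). Both had their highest library in DG1 replicate 1, at 34.5 and 20.5 TPM, where the other DG1 libraries had at most 6.33 and 1.96 TPM. The tested stachyose synthase gene STS1 (DN13447_c0_g2) had 0.190 to 4.11 TPM and was not called (adjusted p = 0.716 in G1 and 0.866 in W1). The 6 genes classed as raffinose synthases summed to 140.1 ± 21.1, 221.0 ± 50.7, 158.8 ± 12 and 204.6 ± 29.6 TPM in CW1, DW1, CG1 and DG1. Their ratio of drought to control was 1.58 in W1 and 1.29 in G1. It was 2.77 and 2.28 for the galactinol synthases, and 4.55 and 7.79 for inositol-3-phosphate synthase. The sum includes the RFS2 hits, whose reaction the names do not settle, so it does not measure raffinose formation.

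**Figure D3:**
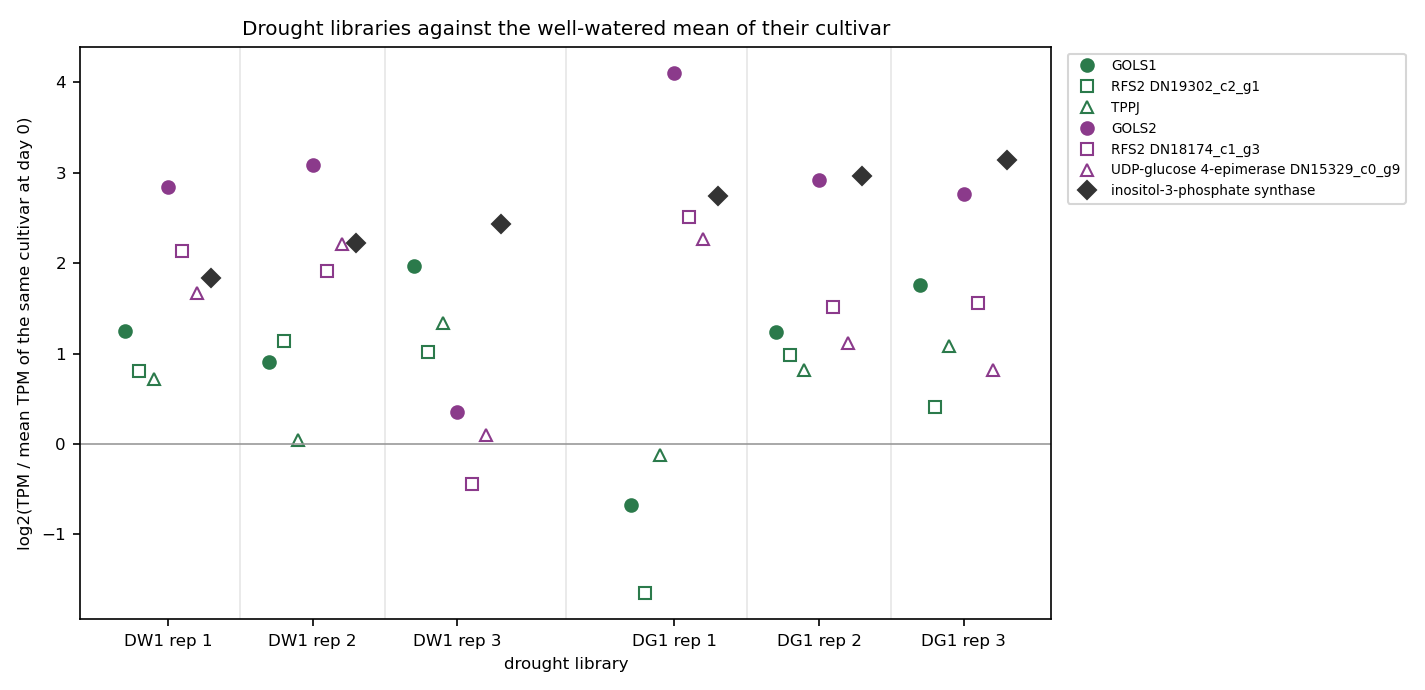
Log2 ratio (vertical axis) of TPM in each drought library (horizontal axis) to the mean TPM of the same cultivar on day 0, for 6 family genes and a UDP-glucose 4-epimerase, chosen after their values were seen. In DW1 replicate 3, GOLS1 was at 1.97 and GOLS2 at 0.35, and in DG1 replicate 1 GOLS1 was at -0.67 and GOLS2 at 4.10, while inositol-3-phosphate synthase was between 1.83 and 3.15 in all 6 libraries.

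Some family genes, chosen after their values were seen, split in opposite ways in DW1 replicate 3 and in DG1 replicate 1. In DW1 replicate 3, GOLS1 (log2 ratio to the CW1 mean 1.97), TPPJ (1.34) and RFS2 DN19302_c2_g1 (1.02) were raised, while GOLS2 (0.35) and RFS2 DN18174_c1_g3 (-0.44) were near the control mean. In DG1 replicate 1, GOLS2 (log2 ratio to the CG1 mean 4.10) and RFS2 DN18174_c1_g3 (2.51) were at their highest of any library, while GOLS1 (-0.67), TPPJ (-0.12) and RFS2 DN19302_c2_g1 (-1.65) were below the control mean. In DW1 replicates 1 and 2, GOLS1 (1.25 and 0.91) and RFS2 DN19302_c2_g1 (0.81 and 1.14) were raised as well. The mesophyll list was at 130287 TPM in DW1 replicate 3 and at 14368 TPM in DG1 replicate 1. It was at 130558 TPM in DW1 replicate 2, where GOLS2 (3.08) and RFS2 DN18174_c1_g3 (1.92) were raised. The part of tissue composition in this split was not tested. The ratio of inositol-3-phosphate synthase to GOLS1 TPM was 0.830 to 1.12 in the controls, 1.43 to 2.56 in DW1, 2.59 and 3.27 in DG1 replicates 3 and 2, and 10.6 in DG1 replicate 1.

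Of the 12 trehalose-phosphate synthase genes, 7 had a hit among TPS5 to TPS11, 4 had TPS1 and 1 had no SwissProt hit. TPS1 is the main active synthase of Arabidopsis, whereas the TPS5 to TPS11 proteins there have little or no synthase activity and are thought to act as regulators. Of the 7 TPS5 to TPS11 hits, 3 rose in G1 (TPS5, TPS6 and TPS9), 0 fell, and 0 were called in W1. Of the 4 TPS1 hits, 0 were called in any drought comparison. Of all tested genes, 11.5% rose and 12.3% fell in G1, 0.771% and 0.799% in W1, and 14.0% and 15.3% with the cultivars averaged. At 7 and 4 genes, these counts do not show that the TPS5 to TPS11 and TPS1 hits differed. The TPS5 to TPS11 hits together had 103.9 ± 12.6, 133.5 ± 20.0, 125.9 ± 9.1 and 184.6 ± 41.0 TPM in CW1, DW1, CG1 and DG1, and the TPS1 hits 48.5 ± 6.0, 43.7 ± 2.6, 49.0 ± 8.0 and 31 ± 3.6 TPM.

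TPS5 (DN18932_c0_g2, 3161 bp) had the smallest adjusted p of the family in G1. It measured 52.4, 56.7 and 43.3 TPM in CW1 and 82.7, 84.2 and 69.1 TPM in DW1, and 52.2, 33.9 and 39.1 TPM in CG1 and 155.1, 104.9 and 107.7 TPM in DG1. Drought libraries lay above controls in both cultivars with no overlap. The rise was 3.05-fold in G1 (log2 1.61 ± 0.19, adjusted p = 0.00105). In W1 the log2 fold change was 0.73 ± 0.19 (adjusted p = 0.0716), past the threshold by DESeq2 (adjusted p = 0.00636) and without DG1 replicate 1 (adjusted p = 0.0358). The difference between the cultivars' responses was not past the threshold for TPS5 or for any other of the 26 genes, the smallest adjusted p being 0.386.

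TPS9 (DN17909_c0_g2, 3323 bp) measured 8.79, 8.32 and 6.29 TPM in CG1 and 16.6, 9.11 and 11.7 TPM in DG1, against 5.91 to 9.26 TPM in W1 in either state. TPS6 (DN16089_c1_g2, 3444 bp) measured 7.56, 3.52 and 4.42 TPM in CG1 and 11.0, 8.16 and 8.42 TPM in DG1, against 5.64 to 9.31 TPM in W1. Neither gene's G1 groups overlapped, and their W1 groups did. In G1 the rise was 1.73-fold for TPS9 (log2 0.79 ± 0.20, adjusted p = 0.0175) and 1.87-fold for TPS6 (log2 0.90 ± 0.21, adjusted p = 0.0131). Both calls were lost without CG1 replicate 2 or CG1 replicate 3 (adjusted p 0.0504 and 0.0689 for TPS9, 0.0541 and 0.0551 for TPS6), and that of TPS9 also without DG1 replicate 1 (log2 0.60, adjusted p = 0.0632). In W1 their log2 fold changes were 0.23 ± 0.20 and 0.01 ± 0.21.

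The TPS1 hits were all lower in DG1 than in CG1 by TPM, with no overlap for any of the 4, but none was called on counts. The TPM log2 ratio minus the count-based log2 fold change was -0.42 for DN14899_c0_g3 and -0.20 for DN21040_c0_g1. It was -0.12 for DN21040_c0_g3 and 0.0019 for DN14166_c0_g4. Some of these falls were therefore larger by TPM than by counts. The most abundant, DN21040_c0_g1 (4114 bp), measured 33.4, 20.4 and 18.3 TPM in CG1 and 17.5, 17.7 and 15.9 TPM in DG1, and 20.1, 22.5 and 21.3 TPM in CW1 and 17.4, 23.2 and 18.2 TPM in DW1. The log2 fold changes of the 4 in G1 ran from -2.49 to -0.29 (adjusted p 0.108 to 0.304) and in W1 from -0.17 to 0.13 (adjusted p 0.766 to 0.958). The lowest of these was the short model DN21040_c0_g3 (843 bp), which was past the threshold in G1 without DG1 replicate 2 (log2 -5.77, adjusted p = 0.00864) and by DESeq2 (adjusted p = 0.0413). It came from the same assembly cluster as DN21040_c0_g1, so reads may have been split between them. Over the whole family, 6 genes of 26 were higher and 6 lower in DG1 than in CG1 with no overlap of TPM (23.1% each, where 16.4% of all tested genes were higher and 19.0% lower in that way), and in W1 4 were higher and 1 lower (15.4% and 3.85%, where 11.3% of all tested genes were higher and 13.7% lower).

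The highest mean TPM in the class belonged to DN13108_c1_g5 (1219 bp), a synthase by its closest database protein but without a SwissProt hit. It measured 113.9, 100.7 and 135.8 TPM in CW1, 89.3, 127.6 and 125.6 TPM in DW1, 86.2, 169.9 and 169.0 TPM in CG1, and 19.3, 113.7 and 89.9 TPM in DG1. The lowest library was DG1 replicate 1, where the mesophyll list was also lowest. The gene was not called (log2 -1.0 ± 0.55 in G1, adjusted p = 0.212, and 0.06 ± 0.55 in W1, adjusted p = 0.961). TPS11 (DN18945_c1_g2) measured 8.40, 13.7 and 13.4 TPM in CW1 and 19.4, 40.7 and 36.0 TPM in CG1, and 8.93 to 26.1 TPM in DW1 and 12.2 to 19.8 TPM in DG1. It was not called for drought (adjusted p = 0.204 in G1 and 0.577 in W1) or between the watered cultivars (adjusted p = 0.212), although the watered groups did not overlap. The 3 TPS7 hits were not called for drought (adjusted p 0.652 to 0.949 in G1 and 0.811 to 0.967 in W1).

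Trehalose-phosphate phosphatases remove the phosphate from trehalose 6-phosphate, and 1 of the 4 tested ones was called. It fell in G1, where 12.3% of all tested genes fell, and with the cultivars averaged, where 15.3% fell. A count of 1 in 4 therefore does not set the class apart. TPPA (DN15829_c0_g1, 2444 bp) measured 8.09, 11.7 and 12.7 TPM in CW1 and 5.37, 8.20 and 5.36 TPM in DW1, and 9.91, 78.7 and 74.2 TPM in CG1 and 11.1, 5.71 and 2.01 TPM in DG1. CG1 replicates 2 and 3 were thus far above the other 10 libraries, and CG1 replicate 1 was among the W1 controls. TPPA fell 8.40-fold in G1 (log2 -3.07 ± 0.83, adjusted p = 0.024), a call lost without CG1 replicate 2 or 3 or DG1 replicate 2 or 3 (adjusted p 0.0661 to 0.0731). Without DG1 replicate 1 the log2 fold change was -4.02 (adjusted p = 0.0193). With the cultivars averaged TPPA fell (log2 -1.87 ± 0.57, adjusted p = 0.0299), and this was lost without any 1 of 9 libraries (adjusted p 0.0522 to 0.0685). In W1 its log2 fold change was -0.67 ± 0.78 (adjusted p = 0.667).

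The CG1 libraries also differed in leaf markers, but not all markers split alike. The mesophyll list summed to 69482, 136412 and 126949 TPM in CG1 replicates 1, 2 and 3. In that list LHCB1.1 DN13243_c0_g6 went the other way, at 3697, 2459 and 2518 TPM. CAB21 DN15219_c0_g2 was near level, at 1566, 1414 and 1439 TPM. The Rubisco small chain gene RBCS (DN20840_c1_g2) measured 67612 and 66299 TPM in CG1 replicates 2 and 3 and 27527 TPM in CG1 replicate 1, with 28842 to 45003 TPM in the W1 controls. The root list was at 206.1 TPM in CG1 replicate 1 and at 89.4 and 71.1 TPM in replicates 2 and 3. The part of these differences in the TPPA result was not tested. Between the watered cultivars TPPA was 5.88-fold higher in CG1 by the fit (log2 2.55 ± 0.81) but not past the threshold (adjusted p = 0.196), and it was past it by DESeq2 (adjusted p = 0.0214) and without CG1 replicate 1 (log2 3.07, adjusted p = 0.0177). Of the other phosphatases, TPPJ (DN17676_c0_g1) had group means of 10.8 ± 3.6, 18.8 ± 8.1, 11.1 ± 2.8 and 17.7 ± 6.8 TPM in CW1, DW1, CG1 and DG1 (adjusted p = 0.337 in G1 and 0.280 in W1). TPPF and TPPH had 0.420 to 13.7 TPM and were not called (adjusted p 0.310 and 0.544 in G1).

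Between cultivars, 0 of the 26 genes were called in any comparison. For the watered plants 0.442% of all tested genes were called, 3 of the 26 had an unadjusted p under 0.05 (12.8% of all tested genes), and DESeq2 called 1 (4.21% of all genes it gave an adjusted p). For the droughted plants 0.00686% of all tested genes were called, 5 of the 26 had an unadjusted p under 0.05 (16%), and DESeq2 called 1 (3.88%). With both water states averaged 1.3% of all tested genes were called, 7 of the 26 had an unadjusted p under 0.05 (19.9%), and DESeq2 called 0 (6.72%). For the difference between the drought responses 0.0137% of all tested genes were called, 2 of the 26 had an unadjusted p under 0.05 (9.49%), and DESeq2 called 0 (1.21%). The more numerous calls in G1 are therefore not shown to be a response different from that of W1. In TPM, 3 genes were higher and 1 lower in CG1 than in CW1 with no overlap (11.5% and 3.85% of the 26, where 6.16% of all tested genes were higher and 10.6% lower), and in DG1 against DW1 the counts were again 3 and 1 (where 7.14% of all tested genes were higher and 10.8% lower).

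Of 31 related genes outside the family, 26 were tested, and 5 rose and 2 fell in G1, 1 rose and 2 fell in W1, and 7 rose and 3 fell with the cultivars averaged. Of all tested genes, 11.5% rose and 12.3% fell in G1, 0.771% and 0.799% in W1, and 14.0% and 15.3% with the cultivars averaged. These lists covered supply and use of inositol and UDP-galactose, raffinose breakdown and the SnRK1 kinase. Upstream of galactinol, the UDP-glucose 4-epimerase DN15329_c0_g9, which forms UDP-galactose, measured 59.2 to 78.2 TPM in CW1 and 217.0, 314.5 and 72.8 TPM in DW1, and 47.9 to 69.9 TPM in CG1 and 278.8, 126.1 and 102.6 TPM in DG1. It rose in G1 (log2 1.71 ± 0.48, adjusted p = 0.0273), a call lost without any 1 of 4 libraries (adjusted p 0.0692 to 0.105), and it had its lowest drought value in DW1 replicate 3 and a high value in DG1 replicate 1, as GOLS2 did. Without DG1 replicate 1 its log2 fold change was 1.10 in G1 (adjusted p = 0.105) and it was past the threshold in W1 (log2 1.80, adjusted p = 0.0478). A second epimerase, UGE-1 (DN15329_c0_g5), had at most 2.33 TPM and rose with the cultivars averaged (log2 2.65 ± 0.72, adjusted p = 0.0194), a call lost without CW1 replicate 2 (adjusted p = 0.0522) or DG1 replicate 1 (log2 2.13, adjusted p = 0.0524).

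**Figure D4:**
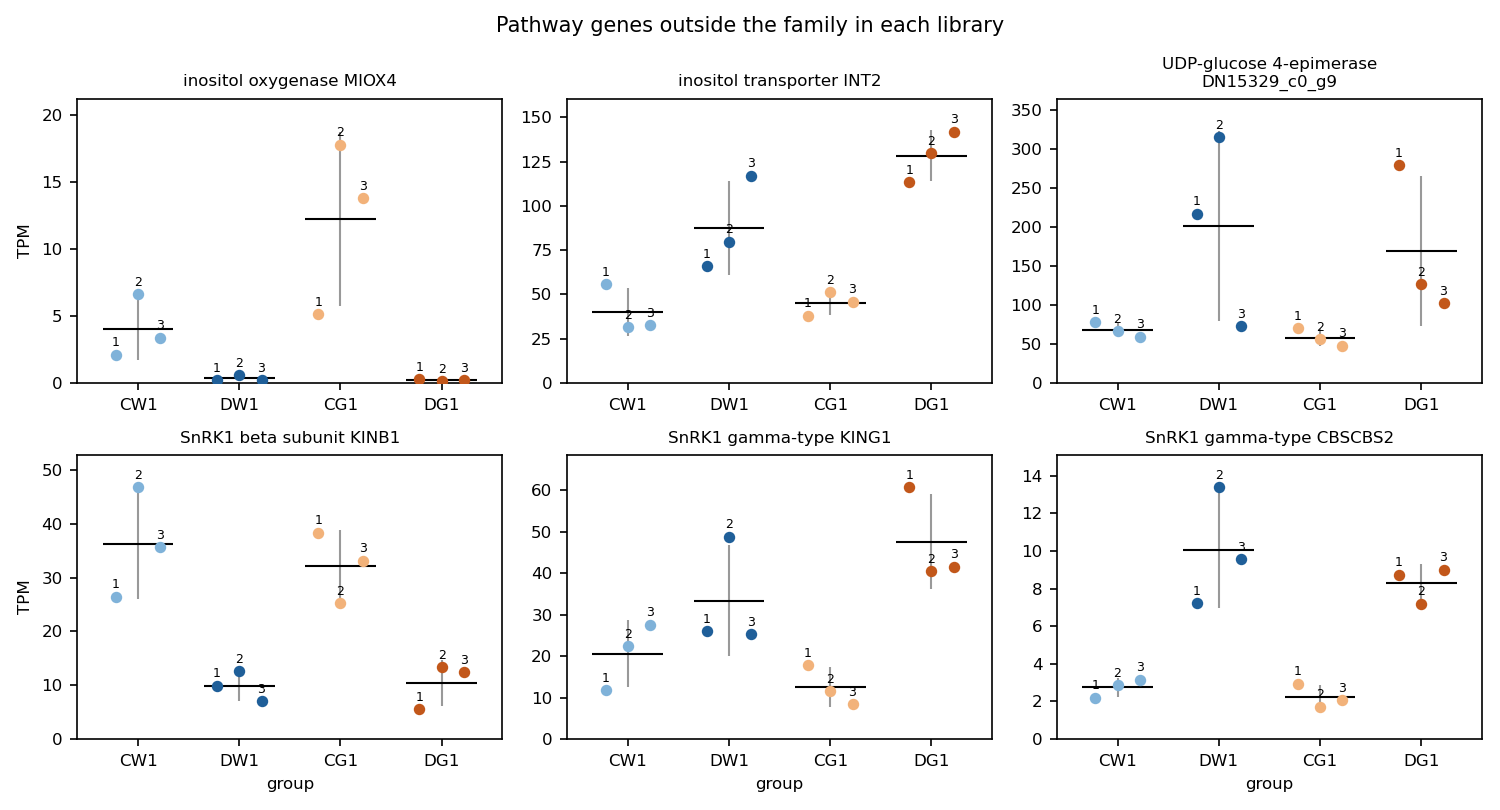
TPM (vertical axes, linear from 0) of 6 related genes outside the family in each library, with replicate numbers beside the points, group means as black bars and SD as grey lines (n = 3). MIOX4 was at 0.110 to 0.60 TPM in all drought libraries and at 2.12 to 17.8 TPM in all controls, and INT2 was higher in all drought libraries (66.0 to 141.9 TPM) than in all controls (31.5 to 55.7 TPM).

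Of the 2 inositol oxygenase genes, MIOX4 fell where inositol-3-phosphate synthase rose, and MIOX1 did not fall in G1. Inositol oxygenase opens the inositol ring to form glucuronate, and 2 genes had such a SwissProt hit without matching the wording used for the family. MIOX4 (DN18358_c0_g3) measured 2.12, 6.65 and 3.39 TPM in CW1 and 0.220, 0.60 and 0.230 TPM in DW1, and 5.15, 17.8 and 13.8 TPM in CG1 and 0.260, 0.110 and 0.210 TPM in DG1. The groups did not overlap in either cultivar. It fell 78.0-fold in G1 (log2 -6.28 ± 0.78, adjusted p = 0.00123) and 10.8-fold in W1 (log2 -3.43 ± 0.69, adjusted p = 0.0416), the latter lost without any 1 of 8 libraries (adjusted p 0.0608 to 0.205). Without DW1 replicate 2 the W1 log2 fold change was -4.04 (adjusted p = 0.0982). MIOX1 (DN18290_c0_g3) was not called (log2 2.66 ± 0.95 in G1, adjusted p = 0.0638, or 0.0478 without DW1 replicate 1 and 0.0451 without DG1 replicate 2). Its DG1 values were 150.8, 15.6 and 14.8 TPM, the first in replicate 1, and were above those of MIOX4. Their log2 ratios to the CG1 mean were 4.05, 0.78 and 0.71. In DW1 the log2 ratios of MIOX1 to the CW1 mean were 1.24, -1.04 and -1.46.

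Among the 4 inositol transporter genes, INT2 (DN15330_c0_g1), a carrier of the plasma membrane in Arabidopsis, measured 38.0, 51.4 and 46.0 TPM in CG1 and 113.4, 129.9 and 141.9 TPM in DG1. It rose 3.08-fold in G1 (log2 1.62 ± 0.32, adjusted p = 0.00628) and had a log2 fold change of 1.26 ± 0.32 in W1 (adjusted p = 0.0706), or 1.45 without DW1 replicate 1 (adjusted p = 0.0333). INT4 rose with the cultivars averaged (log2 0.65 ± 0.19, adjusted p = 0.0239), a call lost without any 1 of 5 libraries (adjusted p 0.0559 to 0.0644), and INT1 was not called (adjusted p = 0.164 in G1, or 0.00416 at log2 -1.17 without CG1 replicate 1). Genes for inositol monophosphatase (2 genes, of which DN21436_c0_g1 had a PAP-specific phosphatase as its SwissProt hit), phosphatidylinositol synthase (1 gene) and the further use of glucuronate (2 genes) had 0 calls in the drought comparisons. Of the 3 alpha-galactosidases, which release galactose from raffinose, AGAL3 rose 1.57-fold in G1 (log2 0.65 ± 0.20, adjusted p = 0.0346), a call lost without any 1 of 6 libraries (adjusted p 0.0529 to 0.126).

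Of 14 SnRK1 subunit genes 9 were tested, and 2 rose and 1 fell in G1 (where 11.5% of all tested genes rose and 12.3% fell). The catalytic subunit gene with the highest level, KIN10 (DN14157_c0_g1), was between 25.0 and 38.5 TPM in all libraries and was not called (log2 0.19 ± 0.12 in G1, adjusted p = 0.278). The gamma-type CBSCBS2 (DN15227_c0_g7) measured 1.72 to 3.15 TPM in the controls and 7.19 to 13.4 TPM under drought, and rose in both cultivars (log2 2.04 ± 0.33 in G1, adjusted p = 0.00311, and 1.97 ± 0.33 in W1, adjusted p = 0.0325). KING1 (DN17251_c0_g5), also gamma-type, rose in G1 (log2 1.97 ± 0.38, adjusted p = 0.0054). The beta subunit KINB1 (DN13293_c0_g6) measured 25.2 to 46.8 TPM in the controls and 5.59 to 13.4 TPM under drought, and fell in both cultivars (log2 -1.56 ± 0.33 in G1, adjusted p = 0.00877, and -1.76 ± 0.34 in W1, adjusted p = 0.0403). The W1 calls of CBSCBS2 and KINB1 were lost without any 1 of 7 and 9 libraries (adjusted p 0.0535 to 0.183 and 0.0505 to 0.205). The trehalase gene TRE1 (DN20240_c0_g7), whose product splits trehalose to glucose and which was added after its values were seen, had at most 8.10 TPM and rose in G1 (log2 2.39 ± 0.73, adjusted p = 0.0372), a call lost without any 1 of 6 libraries (adjusted p 0.0501 to 0.164). Without DG1 replicate 1 its log2 fold change in G1 was 1.45 (adjusted p = 0.164).

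For the most abundant called gene of each enzyme class, the genes most like it were sought by the correlation of log2(TPM + 1) over the 12 libraries, among 14736 annotated genes. For inositol-3-phosphate synthase they were cbpA, annotated as a chloroplast DnaJ-type chaperone (r = 0.991), the uncharacterised DN14952_c0_g4 (r = 0.981) and the metal tolerance protein MTP11 (r = 0.979). For GOLS1 they were the senescence-associated DIN1 (r = 0.963), the chloroplast kinase STN7 (r = 0.963) and the SPX domain protein At4g22990 (r = 0.959). For RFS2 DN18174_c1_g3 they were the lectin receptor kinase At5g24080 (r = 0.963), a protein phosphatase 2C (r = 0.962) and HSP70 (r = 0.950). For TPS5 they were DN15417_c0_g2 (r = 0.985), the transcription factor BHLH80 (r = 0.984) and the MO25-like At5g47540 (r = 0.979), and for TPPA they were HIP (r = 0.979), CSLC4 (r = 0.971) and DN15681_c0_g4 (r = 0.966). Within the family, inositol-3-phosphate synthase and RFS1 ran most opposite (r = -0.946), and GOLS2 ran with RFS2 DN18174_c1_g3 (r = 0.886) and TPS5 (r = 0.878). These values are descriptions over points that share the same 12 libraries and include the difference between water states.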

How the data were processed

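Leaf RNA of 12 libraries was sequenced on an Illumina platform by the authors, who assembled the reads de novo with Trinity and estimated expression per gene with RSEM. The deposited table holds expected counts (estimated counts, not normalized) and TPM (scaled by the authors to transcript length and library total) for 55270 genes. Builds of a genome do not apply to the assembly, and strand is not given in the sources used here. Groups were taken from the treatment labels, except for CW1 replicate 1, which was grouped by its title.

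Expected counts were rounded, filtered with filterByExpr (minimum count 10) and fitted with edgeR 4.0.16 (R 4.3.3; TMM, 1 mean per group, quasi-likelihood test) over all 12 libraries, with 7 contrasts and Benjamini-Hochberg adjustment over 29168 genes, threshold 0.05. DESeq2 1.42.0, limma 3.58.1 on log2(TPM + 1), other filters and leaving out each library were alternatives. Depth ran from 12415229 to 22837632 counts per library, and counts of a few reads bound the precision of the low genes. Members and lists were chosen with earlier results of these data known. Named with values (per library, as group means or as a range) were, per enzyme class, up to 6 called genes and the 2 with the highest mean TPM.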

Additional observations from a re-analysis of the deposited data

How the results depend on the processing

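Counts of called family genes were recomputed under each alternative, and no called fold change reversed its direction. For W1 drought DESeq2 called 4 genes rising and 1 falling, and for the cultivars it called 1 under watered and 1 under droughted conditions. Requiring also a change of 4-fold or more left 3 genes rising in G1 (4.15% of all tested genes), and 2 rising and 1 falling with the cultivars averaged (3.21% and 3.4%). The limma test on log2(TPM + 1) or log2(TPM + 0.1) called 4 rising with the cultivars averaged (9.97% and 9.76% of all tested genes). Fitting only the groups compared called 1 falling in G1 (10.4% of all tested genes) and 0 rising in W1 (0.00385%). Same-numbered libraries showed little shared deviation (3 of 18 pairs had a correlation over 0.1, range -0.18 to 0.27, and 7 correlated best with their own number). Each CG1 library correlated best with the DG1 library of its number, but weakly (0.085, 0.015 and 0.104). These values do not settle whether the numbers pair the libraries. The main fit did not pair them, and the fit with the replicate block called 1 gene falling in G1 (11.6% of all tested genes). Leaving out each library in turn gave 3 to 6 rising and 1 to 2 falling in G1, 0 to 2 rising and 0 to 1 falling in W1, 4 to 7 rising and 1 to 3 falling with the cultivars averaged, 0 to 1 between watered cultivars, 0 between droughted cultivars, 0 to 1 between cultivars averaged and 0 for the difference between responses. The 3 rising genes in G1 without CG1 replicate 2 or 3, and the 0 rising in W1 without CW1 replicate 1 or 2, DW1 replicate 2, CG1 replicate 3 or DG1 replicate 2 or 3, are the lower ends. In the same runs the share of all tested genes rising and falling ran from 5.02% to 10.2% and 6.56% to 12.6% in G1, 0% to 2.09% and 0% to 3.89% in W1, and 8.62% to 12.6% and 10.3% to 15.7% with the cultivars averaged, and the share called between watered cultivars from 0.00956% to 3.76%. The share called was 0% to 0.101% between droughted cultivars, 0.173% to 4.06% between cultivars averaged and 0% to 0.972% for the difference between responses. Other size factors, no filter on low counts and removal of genes with only vertebrate hits left every count within 1.5 times its value. The share of all tested genes did change without the filter. It was then 3.95% rising and 5.56% falling in G1 (11.5% and 12.3% in the main fit), and 5.66% and 7.41% with the cultivars averaged (14.0% and 15.3%). With other size factors 11.4% rose in G1, and without the vertebrate hits 11.3%. Fold changes of the 26 tested family genes in G1 and in W1 were taken under each alternative with all groups in the fit. Of these, 992 stayed on their side of the threshold, 26 lost their call and 12 gained one. The main fit had only 6 rising and 2 falling calls in G1 and 1 rising in W1. Most of the 992 were therefore genes that stayed uncalled, and the losses fell on these few calls. With 3 libraries a group and low counts in the scarce genes, a gene that was not called is not shown to be unchanged.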

Other observations

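For the TPS7 hit DN15532_c0_g5 the 2 deposited units differed. Its TPM was 17.3, 25.8 and 41.4 in CG1 and 11.4 to 17.1 in DG1, a log2 ratio of -1.01, whereas the fit to counts gave -0.23 ± 0.33. Its estimated counts were 622, 861 and 1265 in CG1 and 964, 544 and 726 in DG1. The length implied by counts per TPM, scaled so that the median of 6829 well-expressed genes had its listed length, was 2698, 2030 and 2042 bp in CG1 and 3027 to 4680 bp in the other 9 libraries, where the listed length was 3348 bp. Among the 14 family genes with at least 5 TPM in every library it was the only one for which this length varied by 2-fold or more, as it did for 3.11% of all 11353 such genes. The transcript models behind this gene were not examined. Between the watered cultivars its TPM log2 ratio was 1.39 and the count-based log2 fold change 0.66 ± 0.33 (adjusted p = 0.447). TPPH (DN21042_c0_g3) and the short TPS7 model DN14062_c0_g3 also varied by over 2-fold, at lower levels.

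Pairs of family members that share an assembly cluster are the TPS6 and TPS7 hits DN16089_c1_g2 and DN16089_c1_g3, the TPS1 hits DN21040_c0_g1 and DN21040_c0_g3, and the stachyose synthase and phosphatase models of which 1 or both were too low to test. TPS6 rose in G1 and its cluster neighbour TPS7 DN16089_c1_g3 was between 7.35 and 12.9 TPM in all 12 libraries, with log2 fold changes of 0.05 ± 0.14 in G1 and 0.01 ± 0.14 in W1.

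Of the TPM of the genes classed as raffinose synthases, RFS2 DN18174_c1_g3 held 7.01% to 15.5% in the controls. It held 8.57%, 27.6% and 34.7% in DW1 and 20.0%, 27.3% and 46.9% in DG1. The lowest drought share was in DW1 replicate 3 and the highest in DG1 replicate 1. The share of trehalose-phosphate synthase TPM held by TPS5 was 10.1% to 20.7% in the controls, 24.7% to 30.7% in DW1 and 34.6% to 55.8% in DG1.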
